A study of Mus musculus with 12 samples.

Results

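Cells with strong p16 reporter fluorescence were sorted from infarcted mouse hearts by either of 2 surface proteins, and the RNA of the 2 sorts is compared here. P16hi PDGFRα-high cells were set against P16hi F480-high cells, with 3 libraries each, so 6 of the 12 libraries of the series enter the main comparison. The libraries were taken by their sample labels, without use of any measured value. All mice carried p16-2A-CreER, in which a tamoxifen-dependent Cre recombinase is made from the p16 locus, and R26-mTmG, a reporter that turns a cell green once Cre has acted. All had a myocardial infarction and were given tamoxifen by gavage on day 5. The infarct zone was taken on day 7, and cardiomyocytes were removed before the sort. P16hi stands for high green fluorescence, which marks cells whose p16 locus was active around the tamoxifen dose, and P16lo for low green fluorescence. Both sorts therefore share the alleles, the infarction and the drug, and no uninjured heart or mouse without tamoxifen was analysed here. P16lo PDGFRα-high and P16lo F480-high cells, also 3 libraries each, are used once, to ask whether the same programs separate the sorts when reporter fluorescence is low. Nothing in the labels ties each library to an animal of its own, and p-values therefore cover the spread among libraries, which may be technical. The labels name no sex, age or number of animals.

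PDGFRα is a receptor tyrosine kinase of the cell surface that binds platelet-derived growth factors, and in the heart it marks fibroblasts. After an infarct fibroblasts divide, lay down fibrillar collagen and in part become contractile myofibroblasts, which form the scar. F480 is the surface protein encoded by Adgre1 and marks mature mouse macrophages. Resident cardiac macrophages and macrophages made from recruited monocytes clear dead muscle, take up lipid and release chemokines and cytokines in the same zone. The p16 protein, made from Cdkn2a, inhibits the kinases that start the cell cycle and is a common marker of senescence, in which a cell stops dividing and secretes inflammatory factors.

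The P16hi PDGFRα libraries 1 to 3 held 3163572, 5064821 and 10245034 counts, against 27886805, 24059577 and 15485624 counts in P16hi F480 libraries 1 to 3. The sorts came in separate tables, so a difference between tables and a difference between sorts cannot be told apart. P16hi PDGFRα library 1 was listed in a column block of its own with 13094 genes, while the other blocks listed 16327 to 17357, and a gene missing from a block was set at 0. P16hi F480 library 1 shared a block with P16lo F480 libraries 1 and 2. P16hi F480 libraries 2 and 3 shared another block with P16lo F480 library 3. What the blocks stand for is not given, so block and library differences within a group cannot be told apart. Hemoglobin genes took 0.244%, 4.62% and 2.5% of the counts in P16hi PDGFRα and 0.0034%, 0.169% and 0.363% in P16hi F480 libraries. P16hi F480 library 3 stood apart from its group. Across genes, its log2 CPM (counts per 1e+06 counts of the TMM-scaled library) correlated at 0.731 and 0.698 with F480 libraries 1 and 2, and at 0.819 and 0.796 with PDGFRα libraries 2 and 3. The same measure was 0.883 between F480 libraries 1 and 2, and 0.771 to 0.918 among the PDGFRα libraries. Genes are not independent replicates, and these values describe the libraries only. Results that rest on this library are given with and without it. It was singled out by these values, so calls made without it are no independent support for a difference between the sorts. In the deposited TPM column of that library the ratio to its own FPKM ran from 0.136 to 4.87 (1st to 99th percentile), while in the other 11 libraries it lay between 0.998 and 1.00161 times the library's median, so TPM was recomputed from FPKM where TPM is used.

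Of the genes of the sort antigens, Pdgfra went the way of the labels in every library, and Adgre1 by its mean and fold change only. Pdgfra (gene 18595, GRCm38 chromosome 5, 75151322 to 75198206) had 20.9, 8.54 and 50.2 CPM in P16hi PDGFRα libraries 1 to 3 and 0.965, 3.19 and 4.15 CPM in P16hi F480 libraries 1 to 3. The groups did not overlap. The log2 fold change, P16hi PDGFRα over P16hi F480 here and throughout, was 3.26 (SE 0.894, edgeR adjusted p = 0.246). An exact two-sided permutation test on log2(CPM + 1) gave p = 0.1, the smallest that 3 against 3 libraries can give. Adgre1 (gene 13733, chromosome 17, 57358581 to 57483529) had 263, 219 and 146 CPM in P16hi PDGFRα libraries and 2038, 257 and 400 CPM in P16hi F480 libraries. PDGFRα library 1 lay just above F480 library 2, so the groups overlapped, and F480 library 1 was far above the other 5. The log2 fold change of Adgre1 was -2.10 (SE 0.807, edgeR adjusted p = 0.348), and the exact permutation p was 0.2.

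**Figure D1:**
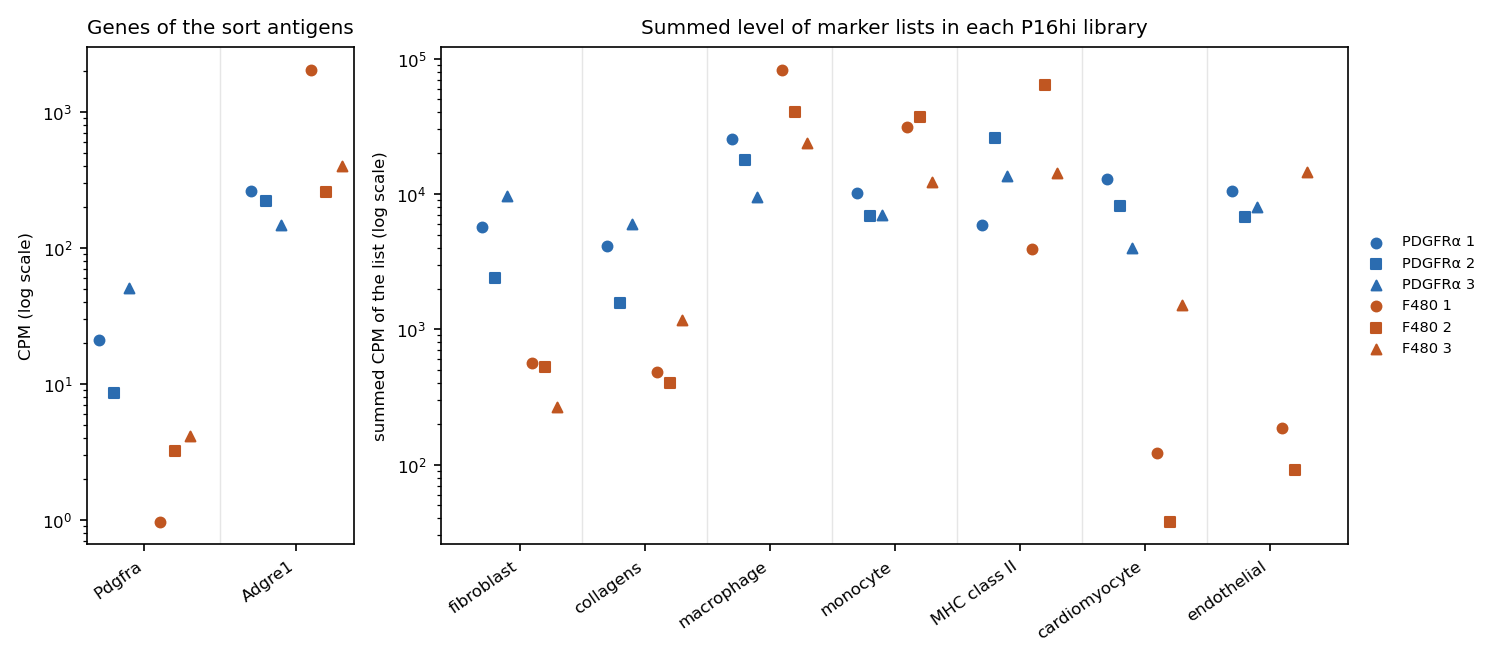
CPM of the sort antigen genes (left) and summed CPM of 7 marker lists (right) in each P16hi library, on log axes, with PDGFRα libraries in blue and F480 libraries in orange. Fibroblast sums of 2398 to 9689 CPM in PDGFRα libraries lie above the 267 to 566 CPM of F480 libraries, while the endothelial sum of F480 library 3, 14570 CPM, lies above all 5 other libraries.

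Both sorts held RNA of the other lineage. The macrophage list, which includes Adgre1, Cd68, Lyz2 and the C1q genes, reached totals of 25520, 17840 and 9561 CPM in P16hi PDGFRα libraries, against 82910, 40580 and 23890 CPM in P16hi F480 libraries. PDGFRα library 1 thus lay above F480 library 3. The fibroblast list, which includes Pdgfra, Col1a1, Dcn and Tcf21, summed to 5704, 2398 and 9689 CPM against 566, 523 and 267 CPM. Within P16hi PDGFRα libraries 1 and 2 the macrophage sum was several times the fibroblast sum. The lists hold different genes of different length, so a sum gives no share of cells, and in bulk RNA fewer cells of a type and less RNA per cell cannot be told apart. Differences below are between the sorted samples and cannot be assigned to pure fibroblasts and pure macrophages.

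Over all 12859 genes tested, 0 were called higher and 0 lower in P16hi PDGFRα cells by edgeR's quasi-likelihood test at a Benjamini-Hochberg adjusted p of 0.05 (0% in each direction). Unadjusted p was under 0.05 for 729 genes in the higher and 944 in the lower direction, and the smallest adjusted p by edgeR was 0.137, shared by 22 genes. The spread within the groups was large, with a biological coefficient of variation of 0.767. Every P16hi PDGFRα library lay above every P16hi F480 library for 1433 genes (11.1%) and below for 1592 (12.4%). These shares are the background for the counts of non-overlapping genes below. Without P16hi F480 library 3, edgeR called 663 of 13356 genes higher (4.96%) and 280 lower (2.1%), with a smallest adjusted p of 0.00495. Of the 663 higher genes 294 (44.3%) lay higher without overlap when F480 library 3 was kept. Of the 279 lower genes tested in both fits 223 (79.9%) lay lower without overlap with it kept. Both shares in part restate the calls, which used the other libraries, so they are no independent support. With all 6 libraries DESeq2 called 584 genes higher and 284 lower, and limma on log2(TPM + 1) of the recomputed TPM called 61 and 22. Leaving out any other single library gave 0 calls by edgeR.

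Ranked by p among genes without overlap whose mean log2 CPM reached 5, leaving out predicted and hemoglobin genes, the first 5 in the higher direction were 3 fibroblast matrix genes, a muscle actin and a lymphoid chemokine. Lum, which encodes the collagen-binding proteoglycan lumican (gene 17022, chromosome 10, 97565501 to 97572703), had 224, 214 and 485 CPM in P16hi PDGFRα libraries and 23.5, 16 and 16.3 CPM in P16hi F480 libraries. The lowest PDGFRα library was thus well above the highest F480 library, and the log2 fold change was 4.05 (SE 0.490, edgeR adjusted p = 0.137). Serpinf1, the secreted pigment epithelium-derived factor (gene 20317, chromosome 11, 75410029 to 75422623), had 156, 80.6 and 178 CPM against 14.1, 9.32 and 13.8 CPM, a log2 fold change of 3.48 (SE 0.438). Mxra8, a matrix remodelling membrane protein (gene 74761, chromosome 4, 155839680 to 155844102), had 120, 60.5 and 171 CPM against 8.45, 5.81 and 9.24 CPM, a log2 fold change of 3.90 (SE 0.50). In these 3 genes P16hi F480 library 3 sat with the other F480 libraries. Acta1, skeletal muscle α-actin, which cardiac muscle also makes (gene 11459, chromosome 8, 123891758 to 123894775), had 148, 70.5 and 53.6 CPM against 1.26, 0.177 and 0.251 CPM, a log2 fold change of 7.30 (SE 0.975). Ccl21b, a ligand of the lymphoid homing receptor Ccr7 (gene 100042493, chromosome 4, 42173120 to 42256825), had 168, 207 and 912 CPM in P16hi PDGFRα libraries and 0 counts in each P16hi F480 library. Against a floor of 3 counts over the whole F480 group its mean was at least 8464-fold higher. Near-identical copies of Ccl21 lie on the same chromosome, so the split of reads among the copies is uncertain. Ccl21a had 0 counts in all P16hi PDGFRα libraries and 18 counts in P16hi F480 library 2. Ccl21c had 23, 343 and 1968 counts in P16hi PDGFRα libraries and 1 count in P16hi F480 library 3. LOC100041504, another copy, had 5 counts in P16hi F480 library 3. The fold thus holds for reads assigned to Ccl21b only. Without P16hi F480 library 3 all 5 genes passed edgeR, with adjusted p from 0.0101 to 0.0146. The genes were ranked in libraries that this fit shares, so passing is no independent support.

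In the lower direction 4 of the first 5 genes by the same rule are known from activated or inflammatory leukocytes. Tnfsf9, which encodes the costimulatory 4-1BB ligand (gene 21950, chromosome 17, 57105287 to 57107758), had 16.8, 21.1 and 16 CPM in P16hi PDGFRα libraries and 237, 190 and 186 CPM in P16hi F480 libraries. Its libraries were tight within both groups, with a log2 fold change of -3.51 (SE 0.335, edgeR adjusted p = 0.137). Cd83, a surface protein of activated antigen-presenting cells (gene 12522, chromosome 13, 43785112 to 43803133), had 83.7, 124 and 105 CPM against 2849, 1494 and 1101 CPM, a log2 fold change of -4.12 (SE 0.505). Clec4e, the receptor Mincle, which senses dead cells and mycobacterial glycolipid (gene 56619, chromosome 6, 123281789 to 123289871), had 14.9, 5.86 and 10.3 CPM against 330, 344 and 115 CPM, a log2 fold change of -4.68 (SE 0.625). Here F480 library 3 was the lowest of its group and still far above each PDGFRα library. Bcl2a1d, an anti-apoptotic BCL2 relative of leukocytes (gene 12047, chromosome 9, 88723288 to 88731850), had 20.5, 26.6 and 30.9 CPM against 232, 236 and 119 CPM, a log2 fold change of -2.91 (SE 0.410). It has near-identical copies on the same chromosome, so its counts are uncertain. Tiparp, a member of the poly(ADP-ribose) polymerase family induced by the aryl hydrocarbon receptor (gene 99929, chromosome 3, 65528447 to 65555518), had 24.3, 15.7 and 30.2 CPM against 216, 158 and 119 CPM, a log2 fold change of -2.81 (SE 0.414). All 5 passed edgeR without P16hi F480 library 3, with adjusted p from 0.00495 to 0.0106. This too is no independent support, since the ranking used the same libraries.

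**Figure D2:**
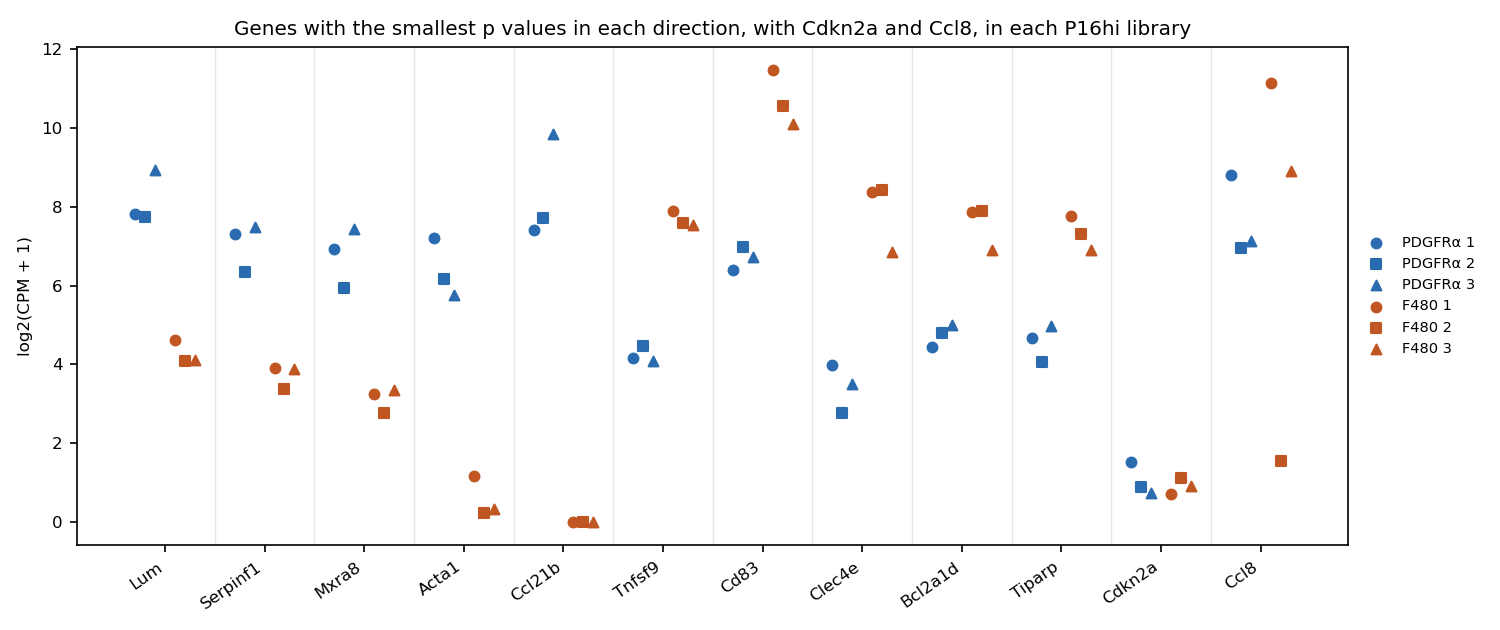
Level of 12 genes, as log2(CPM + 1), in each P16hi library, with PDGFRα libraries in blue and F480 libraries in orange. The first 10 genes do not overlap between the sorts (Tnfsf9 16 to 21.1 CPM against 186 to 237 CPM), while Cdkn2a and Ccl8 do.

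The sequence before the RefSeq start is shown for Serpinf1 of the higher genes, for Bcl2a1d of the lower genes, and for Cxcl2, a neutrophil-attracting chemokine that was the lowest member of the chemokine list by fold change. Each is the stretch of 250 bases before the start on the gene's own strand, from RefSeq on GRCm38.p6, and all 3 were chosen after the values and motif matches were seen. Capitals mark matches on either strand to GGG and TTTCC parted by any 2 bases, a form of the NF-kB site, or GAGGAAGT, a form of the site of the myeloid factor PU.1. The motifs do not overlap one another in these stretches. Serpinf1 (chr11:75422624-75422873, minus strand) holds no match to either.
Serpinf1: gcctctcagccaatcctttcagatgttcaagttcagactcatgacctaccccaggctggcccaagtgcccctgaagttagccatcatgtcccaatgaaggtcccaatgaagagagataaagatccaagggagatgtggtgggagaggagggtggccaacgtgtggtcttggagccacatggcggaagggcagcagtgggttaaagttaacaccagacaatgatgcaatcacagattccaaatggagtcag
Bcl2a1d (chr9:88731851-88732100, minus strand) holds 1 PU.1-type match, from 104 to 97 bases before the start.
Bcl2a1d: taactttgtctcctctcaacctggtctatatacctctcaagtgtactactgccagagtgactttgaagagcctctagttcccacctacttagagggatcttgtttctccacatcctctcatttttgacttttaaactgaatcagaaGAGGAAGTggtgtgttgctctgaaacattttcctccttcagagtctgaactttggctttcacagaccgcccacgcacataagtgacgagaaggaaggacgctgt
Cxcl2 (chr5:90903649-90903898, plus strand) holds 2 NF-kB-type matches, from 97 to 88 and from 78 to 69 bases before the start.
Cxcl2: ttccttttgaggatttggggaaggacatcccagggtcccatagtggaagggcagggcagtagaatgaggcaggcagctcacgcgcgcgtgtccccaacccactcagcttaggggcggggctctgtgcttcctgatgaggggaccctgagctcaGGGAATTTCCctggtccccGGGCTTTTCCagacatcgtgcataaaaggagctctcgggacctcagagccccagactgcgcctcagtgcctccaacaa
Of 27025 RefSeq stretches of this length, 1.4% hold the NF-kB-type and 2.44% the PU.1-type letters. Among the chemokine list 19 of 27 genes had an entry, and 3 of these, Ccl9, Cxcl1 and Cxcl2, held the NF-kB-type letters. Of the same 19, 1, Pf4, held the PU.1-type letters. The first 5 genes of each direction with Pdgfra, Adgre1, Cdkn2a and Ccl8 make 14 genes, of which 10 had an entry. Of these 10, 0 held the NF-kB-type and 1, Bcl2a1d, the PU.1-type letters. The matches thus show no contrast between the higher and the lower genes. A match describes the letters only and is no evidence that a factor binds there.

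Fibroblast identity genes were higher in P16hi PDGFRα cells almost without exception. Of the 20 fibroblast markers tested, 19 lay higher in each PDGFRα library than in every F480 library and 1 overlapped, with a median log2 fold change of 3.92, where the median of all genes tested was -0.06. With all 6 libraries edgeR called 0 of the 20, and without F480 library 3 it called 12. Dcn, the proteoglycan decorin of collagen fibrils, had 1031, 732 and 3148 CPM in P16hi PDGFRα libraries and 88.9, 78.9 and 55.3 CPM in P16hi F480 libraries, a log2 fold change of 4.46 (SE 0.681). Mfap5, a glycoprotein of elastic microfibrils, had 184, 93.6 and 298 CPM against 16.3, 9.58 and 14.7 CPM. Pcolce, the enhancer of procollagen cleavage, had 199, 70.5 and 234 CPM against 7.82, 6.65 and 14.3 CPM. PDGFRα library 2 had the lowest value of its group for all 3 genes, and still exceeded the highest F480 library.

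Resting fibroblast genes separated the sorts less completely than the general markers. Of 19 resting cardiac fibroblast genes tested (1 more did not pass the filter on low counts), 11 lay higher without overlap, 0 lower, and the median log2 fold change was 2.67. Ogn, the small proteoglycan osteoglycin, had 107, 43.5 and 140 CPM in P16hi PDGFRα libraries and 6.71, 6.83 and 3.14 CPM in P16hi F480 libraries. Clec3b, which encodes the plasminogen-binding protein tetranectin, had 35.4, 25.1 and 125 CPM against 1.16, 1.86 and 2.45 CPM. Gsn, the actin-severing protein gelsolin, differed less, with 701, 613 and 2303 CPM against 349, 366 and 146 CPM, a log2 fold change of 2.07 (SE 0.658). PDGFRα library 3 was the highest of the 6 for Ogn, Clec3b and Gsn.

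Most genes of the infarct myofibroblast were higher as well, and here PDGFRα library 1 led. Of 18 tested genes (2 more did not pass the filter), 13 lay higher without overlap and 1 lower, with a median log2 fold change of 2.88. The list summed to 1742, 660 and 1390 CPM in P16hi PDGFRα libraries and to 444, 1207 and 432 CPM in P16hi F480 libraries. F480 library 2 thus lay above PDGFRα library 2. Fn1, the member of highest mean CPM, stands also in the monocyte list and had a log2 fold change below 0. Postn, the matricellular protein periostin of activated fibroblasts, had 323, 93.8 and 257 CPM in P16hi PDGFRα libraries and 34.0, 17.8 and 2.70 CPM in P16hi F480 libraries. Cthrc1, a secreted protein of the fibroblasts that make scar, had 105, 21.6 and 34.4 CPM against 6.66, 2.97 and 1.19 CPM. Acta2, smooth muscle α-actin, had 184, 51.4 and 86.9 CPM against 15.9, 8.21 and 45.9 CPM, so F480 library 3 came close to PDGFRα library 2. The log2 fold change of Acta2 was 2.20 (SE 0.757, edgeR adjusted p = 0.31) with all libraries and 3.14 (edgeR adjusted p = 0.0439) without F480 library 3.

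Interstitial collagens followed the fibroblast markers, and basement membrane collagen did not. Of 18 collagens, 11 lay higher without overlap and 7 overlapped, and all 18 had a log2 fold change above 0, with a median of 3.42. Col1a1, the main chain of type I collagen, had 1270, 282 and 1243 CPM in P16hi PDGFRα libraries and 125, 103 and 19.8 CPM in P16hi F480 libraries, a log2 fold change of 3.50 (SE 0.870). Col3a1, of type III collagen, had 1033, 303 and 1444 CPM against 111, 133 and 31.9 CPM. Col6a1, of the microfibrillar type VI, had 111, 62.5 and 256 CPM against 9.70, 11.4 and 3.46 CPM. For Col1a1, Col3a1 and Col6a1, F480 library 3 was the lowest library of all. Col4a1, of the basement membrane that endothelium and muscle rest on, had 278, 250 and 579 CPM against 20.9, 6.03 and 610 CPM. Its log2 fold change was 0.80 (SE 1.45) with F480 library 3, which was the highest of all 6 libraries, and 4.76 without it (edgeR adjusted p = 0.0198).

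The rest of the matrix showed the same split. Of 21 small proteoglycans and matricellular proteins, 14 lay higher without overlap and 1 lower, with a median log2 fold change of 3.50. Bgn, the proteoglycan biglycan, had 853, 491 and 1254 CPM in P16hi PDGFRα libraries and 137, 57.1 and 46.4 CPM in P16hi F480 libraries. Ccn2, a matricellular target of TGF-β signalling, had 255, 119 and 159 CPM against 21.1, 8.03 and 4.21 CPM. The gene lower without overlap was Thbs1, thrombospondin 1, which macrophages also make, with 27.8, 21.9 and 63.9 CPM against 997, 1398 and 125 CPM, a log2 fold change of -4.47 (SE 0.958). Spp1, osteopontin, a product of macrophages in infarcts, had 1785, 131 and 177 CPM against 6943, 429 and 1418 CPM and overlapped. Sparc, osteonectin, followed Col4a1, with 1577, 972 and 2366 CPM against 153, 76.6 and 1454 CPM.

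Elastic fibre genes mostly ran the same way. The matrix lists are not independent of the fibroblast list, with which they share members. Fbln1, Mfap4, Mfap5, Loxl1 and Pcolce stand also in the elastic fibre list, and Mmp2 in the metalloproteinase list. Col1a1, Col1a2 and Col3a1 stand also among the collagens, and Dcn and Lum among the proteoglycans. Of 23 elastic fibre and collagen processing genes tested, 13 lay higher without overlap and 0 lower, with a median of 2.37. Eln, elastin, had 574, 163 and 380 CPM in P16hi PDGFRα libraries and 25.9, 16.1 and 15.7 CPM in P16hi F480 libraries, a log2 fold change of 4.27 (SE 0.582). Loxl1, an oxidase that crosslinks elastin, had 162, 42.4 and 218 CPM against 9.12, 9.0 and 6.47 CPM. Metalloproteinases were divided, with 5 of 16 higher and 1 lower without overlap and a median of 0.21, which was -0.11 under a stricter filter on low counts, -0.07 without PDGFRα library 3 and 3.18 without F480 library 3. Mmp2, a gelatinase of fibroblasts, had 148, 71.2 and 268 CPM against 15.8, 8.83 and 8.23 CPM. Mmp19 ran the other way, with 7.58, 7.37 and 32.0 CPM against 425, 207 and 24.6 CPM, and overlapped because PDGFRα library 3 exceeded F480 library 3. Timp4, a tissue inhibitor of these proteases found in heart, had 283, 225 and 271 CPM against 0.628, 0 and 311 CPM.

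Transcription factors of mesenchyme were at low levels and mostly higher in P16hi PDGFRα cells, and its growth factor receptors were less uniform. Of 20 mesenchymal transcription factors tested, 10 lay higher without overlap and 1 lower, with a median log2 fold change of 2.28 and of 4.58 without F480 library 3. Hand2, a factor of cardiac mesenchyme and heart development, had 13.6, 16.4 and 17.9 CPM in P16hi PDGFRα libraries and 0.290, 0.177 and 1.13 CPM in P16hi F480 libraries, a log2 fold change of 4.90 (SE 0.997). Prrx1, which marks mesenchymal cells, had 21.5, 6.36 and 21.9 CPM against 0.483, 0.311 and 2.45 CPM. The gene lower without overlap was Zeb2, a zinc finger factor that macrophages also use, with 57.5, 69.7 and 38.0 CPM against 209, 154 and 81.3 CPM. Meox2, a homeobox factor known from cardiac endothelium, had 134, 102 and 88.7 CPM against 1.21, 0 and 123 CPM. Among 17 growth factor receptors of mesenchyme, which include Pdgfra, 8 lay higher without overlap, 0 lower and 9 overlapped, with a median of 1.59. The log2 fold change was above 0 for 12 and below 0 for 5, and edgeR called 0 without F480 library 3. The receptor list summed to 458, 642 and 1014 CPM in P16hi PDGFRα libraries and to 1055, 478 and 570 CPM in P16hi F480 libraries. Pdgfrb, the partner receptor of Pdgfra, had 14.9, 12.4 and 41.4 CPM against 1.93, 2.97 and 4.09 CPM.

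Secreted modifiers of IGF and WNT signalling were also higher. Of 13 tested genes (4 more did not pass the filter), 6 lay higher without overlap and 0 lower, with a median log2 fold change of 2.48. Sfrp2, a WNT antagonist, had 115, 47.1 and 95.4 CPM in P16hi PDGFRα libraries and 18.1, 6.96 and 1.45 CPM in P16hi F480 libraries. Igfbp5, a binding protein of insulin-like growth factors, had 37.3, 50.1 and 304 CPM against 0.917, 1.06 and 20.1 CPM. Igfbp7, which endothelium makes in quantity, had 1051, 631 and 1387 CPM against 68.5, 36.0 and 1340 CPM, and F480 library 3 again fell among the PDGFRα libraries.

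**Figure D3:**
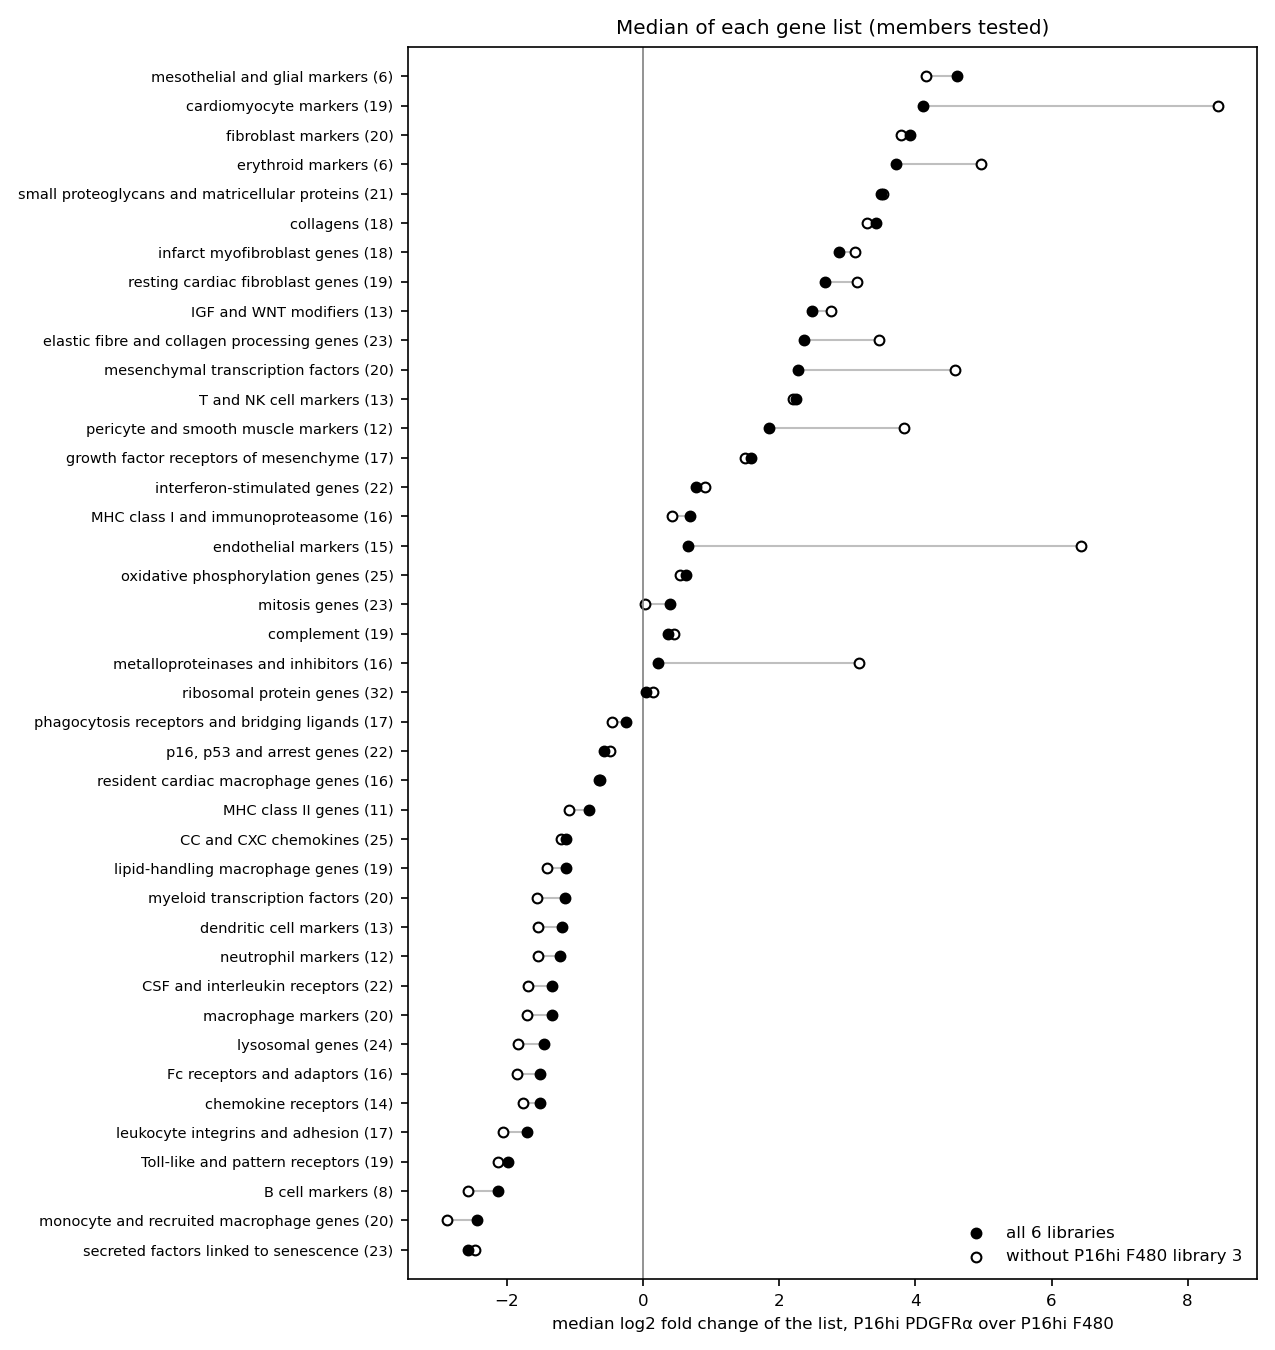
Median log2 fold change of each of the 41 gene lists, P16hi PDGFRα over P16hi F480, with all 6 libraries (filled) and without P16hi F480 library 3 (open), and the number of members tested in brackets. Fibroblast, collagen and proteoglycan lists lie at 2.67 to 3.92 with all libraries, monocyte genes lie at -2.44, and the endothelial median is 0.65 with and 6.43 without that library.

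Macrophage genes ran lower in P16hi PDGFRα cells, but with more overlap than the fibroblast genes ran higher. Of 20 macrophage markers, 7 lay lower without overlap, 0 higher and 13 overlapped, with a median log2 fold change of -1.34. Without F480 library 3 edgeR called 4 lower. Cd14, the coreceptor for bacterial lipopolysaccharide, had 193, 325 and 203 CPM in P16hi PDGFRα libraries and 3315, 2779 and 1065 CPM in P16hi F480 libraries, a log2 fold change of -3.31 (SE 0.548, edgeR adjusted p = 0.156). Lyz2, lysozyme, had 7882, 4551 and 2668 CPM against 27572, 22197 and 9485 CPM. Itgam, the integrin chain CD11b, had 93.5, 71.7 and 66.2 CPM against 244, 499 and 126 CPM. C1qb, of the complement component C1q that macrophages make, had 3492, 3217 and 1184 CPM against 8904, 724 and 2028 CPM. Its log2 fold change was -0.56 (SE 0.898) with all libraries and 0.95 without F480 library 1.

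Among the lists that describe kinds of macrophage, the F480 libraries differed widely from one another. Resident cardiac macrophage genes lay lower without overlap for 2 of 16, close to the 12.4% of all genes. Their median of -0.63 turned to 0.28 without F480 library 1. They summed to 3996, 3651 and 2660 CPM in P16hi PDGFRα libraries and to 18420, 2020 and 6502 CPM in P16hi F480 libraries. Mrc1, the mannose receptor, had 160, 187 and 83.0 CPM against 1077, 140 and 382 CPM. Lyve1, a hyaluronan receptor of resident macrophages and lymphatic endothelium, had 57.2, 134 and 208 CPM against 80.4, 6.61 and 28.2 CPM. F13a1, coagulation factor XIII A, did not overlap, with 123, 207 and 74.1 CPM against 674, 554 and 399 CPM and a log2 fold change of -2.01 (SE 0.477).

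Monocyte and lipid-handling genes picked out different F480 libraries. Of 20 monocyte and recruited macrophage genes 4 lay lower without overlap, Clec4e, Thbs1, Lyz2 and Chil3. The median was -2.44, all 20 had a log2 fold change below 0, and the median was 0.15 without F480 library 2. Clec4e stands also among the pattern receptors, Lyz2 among the macrophage markers and Thbs1 among the matricellular proteins. The myeloid lists share members and are thus not independent of one another. Chil3, a chitinase-like protein of monocytes, had 18, 31.5 and 19.6 CPM in P16hi PDGFRα libraries and 51.7, 1465 and 35.8 CPM in P16hi F480 libraries. Lipid-handling genes lay lower without overlap for 1 of 19, below the 12.4% of all genes. Their median was -1.13, and 0.22 without F480 library 1. Apoe, the lipid carrier apolipoprotein E, had 21679, 8309 and 4332 CPM against 57798, 2662 and 14851 CPM. Abcg1, which exports cholesterol from macrophages, was the gene that did not overlap, with 39.8, 44.2 and 74.3 CPM against 338, 168 and 84.0 CPM. F480 library 1 was thus highest in resident and lipid-handling genes and library 2 in monocyte genes.

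Most Fc receptor and adaptor genes were lower without overlap in P16hi PDGFRα cells, and few myeloid transcription factors were. Among 20 myeloid transcription factors 3 lay lower without overlap and 0 higher, with a median of -1.14, and this share is close to the 12.4% of all genes. Bhlhe40, a helix-loop-helix factor of activated macrophages, had 67.9, 48.4 and 83.0 CPM in P16hi PDGFRα libraries and 583, 429 and 188 CPM in P16hi F480 libraries, a log2 fold change of -2.59 (SE 0.511). Cebpb, a factor of inflammatory gene expression, had 187, 209 and 189 CPM against 701, 1114 and 402 CPM. Spi1, which encodes PU.1, had 245, 211 and 120 CPM against 604, 482 and 178 CPM and overlapped. Of 16 Fc receptors and adaptors 9 lay lower without overlap and 0 higher, with a median of -1.51. Lyn, a kinase downstream of Fc receptors, had 124, 179 and 176 CPM against 603, 492 and 258 CPM, and Fcgr2b, the inhibitory Fc receptor, had 197, 165 and 118 CPM against 1018, 382 and 311 CPM.

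Receptors for microbial products and cytokines gave the largest counts of non-overlapping genes among the myeloid lists. Of 19 Toll-like and other pattern receptors tested 11 lay lower without overlap and 0 higher, with a median log2 fold change of -1.98, and edgeR called 7 lower without F480 library 3. Tlr2, which senses lipoproteins, had 49.6, 70.5 and 50.9 CPM in P16hi PDGFRα libraries and 1036, 505 and 243 CPM in P16hi F480 libraries, a log2 fold change of -3.38 (SE 0.597). Clec7a, the β-glucan receptor dectin-1, had 72.7, 56.3 and 53.2 CPM against 462, 582 and 138 CPM. Of 22 receptors for colony-stimulating factors and interleukins 11 lay lower and 0 higher, with a median of -1.34 and 7 calls without F480 library 3. Csf1r, the receptor of the growth factor that sustains macrophages, had 376, 670 and 285 CPM against 2460, 1308 and 815 CPM. Tnfrsf1b, the second TNF receptor, had 108, 82.6 and 95.3 CPM against 1080, 614 and 174 CPM, and Csf2rb, the shared receptor chain for GM-CSF, had 46.8, 105 and 51.6 CPM against 355, 471 and 131 CPM.

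Adhesion, uptake and lysosome genes followed with more overlap. Of 17 leukocyte integrins and adhesion genes 5 lay lower and 1 higher without overlap, with a median of -1.71. Cd44, the hyaluronan receptor of leukocytes, had 84.1, 79.9 and 104 CPM in P16hi PDGFRα libraries and 1176, 868 and 217 CPM in P16hi F480 libraries. Of 24 lysosomal genes 5 lay lower and 1 higher, with a median of -1.45. Ctsc, cathepsin C, had 547, 460 and 389 CPM against 2400, 1442 and 846 CPM. Ctsb, cathepsin B, overlapped, with 7362, 1895 and 1768 CPM against 23826, 2784 and 4580 CPM. Receptors and bridging ligands for dead cells were divided, with 3 of 17 lower and 1 higher without overlap. Their median was -0.26, with 0.15 when libraries were scaled by their totals only and -0.45 without F480 library 3. Msr1, a scavenger receptor, had 72.0, 59.8 and 39.2 CPM against 256, 195 and 104 CPM, while Mfge8, a ligand that bridges dead cells to phagocytes, had 409, 200 and 268 CPM against 80.4, 27.1 and 193 CPM.

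No MHC class II gene separated the sorts, and most class I genes ran slightly higher in P16hi PDGFRα cells by fold change. Of 11 MHC class II genes, 0 lay higher or lower without overlap, with a median of -0.79 that was 1.09 without F480 library 2. Cd74, the invariant chain, had 2999, 12254 and 6986 CPM in P16hi PDGFRα libraries and 2220, 36373 and 7427 CPM in P16hi F480 libraries, and F480 libraries 1 and 2 held the lowest and the highest value of the 6. Class I and immunoproteasome genes lay higher without overlap for 5 of 16 and lower for 0, with a median of 0.69 that was 0.43 without F480 library 3. Their sums overlapped, with 10870, 9910 and 18770 CPM in P16hi PDGFRα libraries and 20660, 13700 and 7972 CPM in P16hi F480 libraries. Psmb9, an immunoproteasome subunit, had 243, 238 and 314 CPM against 65.2, 146 and 64.7 CPM. H2-T22, a class I gene of close relatives whose reads may be shared, had 272, 228 and 407 CPM against 88.6, 128 and 119 CPM. B2m, the light chain of class I molecules, had 3571, 2636 and 5784 CPM against 9437, 3808 and 2724 CPM and overlapped. Interferon-stimulated genes lay higher for 2 of 22, Gbp3 and Irgm1, with a median of 0.78 that was -0.03 without PDGFRα library 3. This share is below the 11.1% of all genes. Gbp3, an interferon-induced GTPase, had 67.0, 110 and 327 CPM against 37.0, 56.5 and 39.5 CPM.

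Complement genes were divided, with the C1 inhibitor and factor D higher in P16hi PDGFRα cells and C1q overlapping. Of 19 tested, 5 lay higher and 1 lower without overlap, with a median of 0.36 that was -0.08 without PDGFRα library 3. Serping1, the C1 inhibitor, had 209, 147 and 701 CPM in P16hi PDGFRα libraries and 17.2, 9.0 and 6.22 CPM in P16hi F480 libraries, a log2 fold change of 5.03 (SE 0.804). Cfd, the protease of the alternative pathway that fat cells secrete, had 27.8, 3.01 and 15.5 CPM against 0.241, 0.177 and 0 CPM. C1qb, given above, was among the genes that overlapped.

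**Figure D4:**
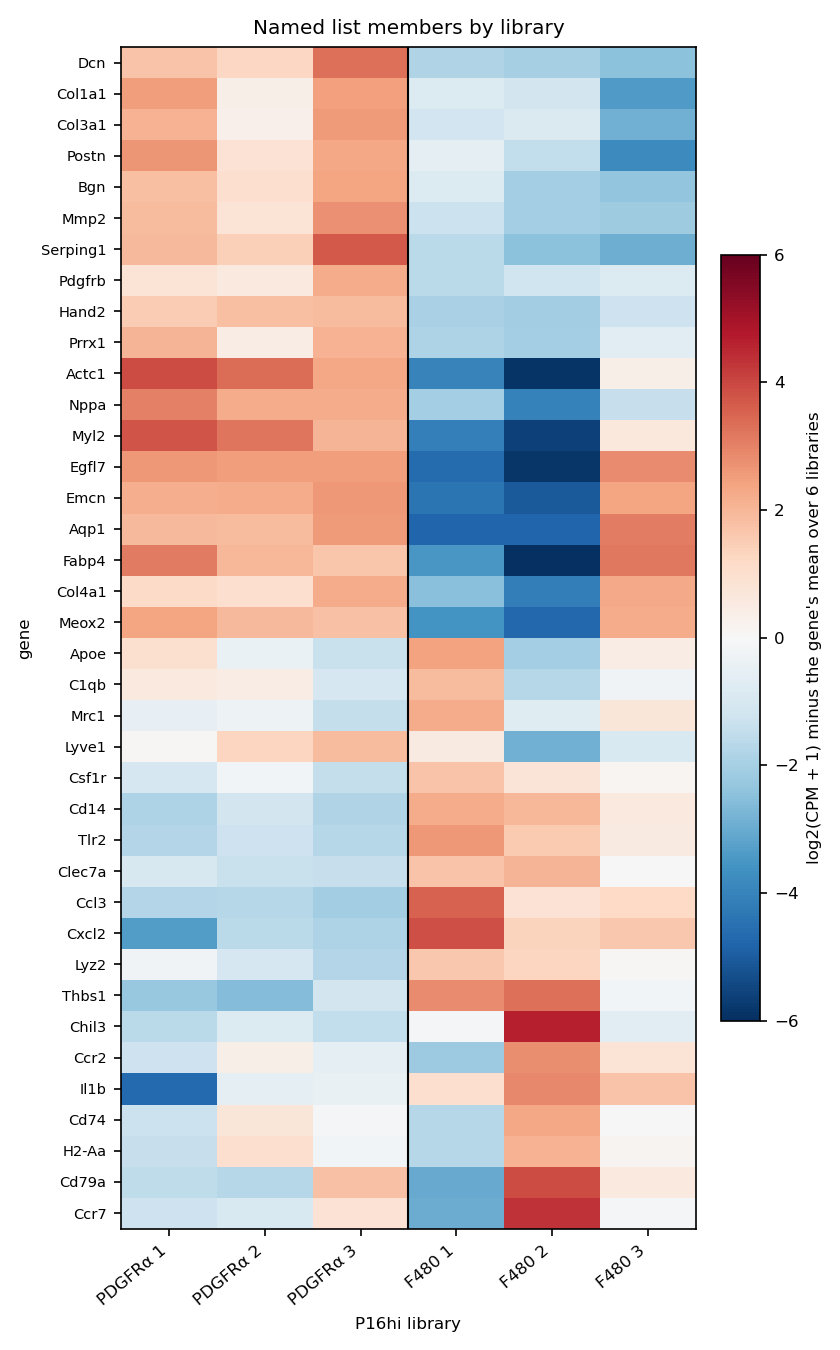
Level of named list members in each P16hi library, as log2(CPM + 1) minus the gene's mean over the 6 libraries, with higher values in red and lower in blue and a line between PDGFRα (left) and F480 (right). Fibroblast genes such as Dcn (732 to 3148 CPM against 55.3 to 88.9 CPM) divide at the line, endothelial genes such as Egfl7 are high in PDGFRα libraries and F480 library 3, and Apoe, Chil3 and Cd74 differ among the F480 libraries.

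Inflammatory chemokines were among the genes furthest below in P16hi PDGFRα cells. Of 25 chemokines tested (2 more did not pass the filter), 9 lay lower and 2 higher without overlap, with a median log2 fold change of -1.13. Cxcl2 had 20.5, 72.3 and 61.6 CPM in P16hi PDGFRα libraries and 3267, 566 and 674 CPM in P16hi F480 libraries, a log2 fold change of -4.86 (SE 0.932, edgeR adjusted p = 0.18). Ccl3, a ligand of Ccr1, had 28.8, 29.6 and 22.5 CPM against 1156, 183 and 233 CPM. Ccl4, a chemokine of activated macrophages, had 79.9, 129 and 93.2 CPM against 2077, 554 and 747 CPM. F480 library 1 led for all 3 genes. Ccl2, which draws monocytes through Ccr2, had 76.2, 67.7 and 52.1 CPM against 718, 218 and 322 CPM, and edgeR called Ccl2, Ccl3, Ccl4 and Cxcl2 lower without F480 library 3.

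Ccl8, the chemokine of the series title, which draws monocytes and lymphocytes, was present in both sorts and varied widely inside the F480 group. Ccl8 (gene 20307, chromosome 11, 82115185 to 82116799) had 443, 122 and 139 CPM in P16hi PDGFRα libraries and 2263, 1.95 and 477 CPM in P16hi F480 libraries. F480 library 2 was the lowest and F480 library 1 the highest of the 6, with all PDGFRα libraries between them. The log2 fold change of -1.96 (SE 1.68, edgeR adjusted p = 0.682) was smaller than the spread among the F480 libraries, whose mean was 914 ± 1192 CPM, against 235 ± 181 CPM in P16hi PDGFRα libraries (SD, n = 3 each). By limma on log2(TPM + 1) of the recomputed TPM the log2 difference was 0.58, so the direction depends on the scale.

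Chemokine receptors were lower for 3 and higher for 2 of 14 without overlap, with a median of -1.51 that was 0.42 without F480 library 2. Among all genes 12.4% lay lower and 11.1% higher, so these small counts stand little above the background. Ccr1, a receptor of Ccl3, had 20.5, 31.5 and 28.3 CPM in P16hi PDGFRα libraries and 164, 284 and 116 CPM in P16hi F480 libraries, a log2 fold change of -2.81 (SE 0.447). Cxcr4, the receptor of Cxcl12, had 25.3, 20.4 and 19.4 CPM against 357, 96.6 and 81.4 CPM. Ccr2, the receptor of recruited monocytes, had 47.1, 145 and 75.0 CPM against 24.0, 798 and 202 CPM, so it overlapped and F480 library 1 held the lowest value.

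Cdkn2a itself did not separate the sorts. Its locus (gene 12578, chromosome 4, 89274473 to 89294619) also gives rise to p19Arf, and counts per gene cannot separate these products. There were 6, 5 and 8 counts in P16hi PDGFRα libraries and 13, 26 and 14 counts in P16hi F480 libraries, or 1.90, 0.837 and 0.666 CPM against 0.628, 1.15 and 0.880 CPM. The log2 fold change was 0.31 (SE 1.14, edgeR adjusted p = 0.937), and counts this low do not allow a closer comparison. Among 22 p16, p53 and arrest genes 6 lay lower and 1 higher without overlap, with a median of -0.57. Cdkn1a, the cell cycle inhibitor p21, had 308, 345 and 504 CPM against 790, 602 and 702 CPM. Gadd45b, a stress-induced gene, had 30.3, 51.9 and 88.0 CPM against 654, 256 and 255 CPM, and Mdm2, the p53 regulator, had 40.8, 48.2 and 42.6 CPM against 370, 97.1 and 72.1 CPM. Both sorts were chosen for the reporter of p16, so these values do not compare senescent with other cells.

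Secreted factors linked to senescence had a median of -2.57, with 8 of 23 lower and 2 higher without overlap. Il1a, interleukin 1α, had 7.58, 0.167 and 1.5 CPM in P16hi PDGFRα libraries and 281, 61.9 and 52.0 CPM in P16hi F480 libraries, a log2 fold change of -5.52 (SE 1.35). Il1b, interleukin 1β, had 12.3, 235 and 246 CPM against 685, 2506 and 1114 CPM. Plaur, the urokinase receptor, had 49.6, 25.1 and 58.9 CPM against 430, 562 and 108 CPM. The 2 members higher without overlap were Igfbp5, given above, and Serpine2, a secreted protease inhibitor, with 27.5, 9.88 and 76.1 CPM against 9.41, 2.31 and 0.503 CPM, named after its values were seen. Cxcl2, Ccl2 and Ccl8 stand in this list and in the chemokine list. Mitosis genes did not separate the sorts, with 0 of 23 higher and 1 lower without overlap and a median of 0.40, which was 0.025 without F480 library 3. Mki67, a marker of dividing cells, had 0.316, 14.4 and 13.7 CPM against 23.3, 39.7 and 11.8 CPM.

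Heart muscle genes separated the sorts as widely as fibroblast genes, although cardiomyocytes had been removed and neither antibody selects them. Of 19 cardiomyocyte markers 17 lay higher without overlap in P16hi PDGFRα libraries and 2 overlapped, with a median log2 fold change of 4.12, and of 8.45 without F480 library 3. The list summed to 12950, 8159 and 3972 CPM in P16hi PDGFRα libraries and to 122, 37.8 and 1508 CPM in P16hi F480 libraries. Actc1, cardiac α-actin, had 2499, 1717 and 831 CPM against 9.32, 1.86 and 215 CPM. Myl2, the ventricular light chain, had 997, 666 and 295 CPM against 3.19, 0.488 and 111 CPM. Nppa, atrial natriuretic peptide, had 250, 144 and 144 CPM against 6.42, 0.887 and 10.9 CPM, a log2 fold change of 4.89 (SE 0.906). Without F480 library 3 edgeR called 18 of the 19. Oxidative phosphorylation genes, of which muscle has much, had a median of 0.62, with all 25 above 0 and 8 higher without overlap, and Cox6a2, a subunit of striated muscle, had 751, 420 and 198 CPM against 3.52, 1.82 and 49.1 CPM. The part of muscle RNA in the other differences was not tested.

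Endothelial genes gave the plainest dependence on 1 library. In P16hi PDGFRα libraries the 15 endothelial markers summed to 10460, 6778 and 8050 CPM, and in P16hi F480 libraries to 186, 91.1 and 14570 CPM. None of the 15 was free of overlap, and the median log2 fold change was 0.65. Without F480 library 3 the median was 6.43 and edgeR called 15 of 15 higher. Egfl7, a factor secreted by endothelium, had 614, 580 and 574 CPM against 3.14, 0.754 and 732 CPM. Emcn, endomucin of capillaries and veins, had 244, 248 and 323 CPM against 1.59, 0.621 and 274 CPM, and Aqp1, a water channel of capillaries, had 524, 504 and 801 CPM against 4.05, 3.95 and 1153 CPM. Fabp4, a fatty acid binding protein of capillary endothelium and of macrophages, had 7300, 3333 and 2669 CPM against 73.6, 9.0 and 7630 CPM. Pericyte and smooth muscle markers lay higher without overlap for 5 of 12, with a median of 1.85 that was 3.84 without F480 library 3, and Des, desmin, had 666, 240.5 and 138 CPM against 6.81, 1.06 and 50.7 CPM.

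B cell and dendritic cell genes were highest in 1 F480 library, and erythroid genes in 2 PDGFRα libraries. The B cell and dendritic cell lists had 0 of 8 and 0 of 13 members without overlap. B cell markers totalled 52.1, 74.7 and 414 CPM in P16hi PDGFRα libraries, against 27.5, 1891 and 276 CPM in P16hi F480 libraries. Dendritic cell markers totalled 298, 307 and 396 CPM, against 25, 1691 and 330 CPM. F480 library 2 held most of both, with 556 CPM of Cd79a, a chain of the B cell receptor complex, and 701 CPM of Ccr7, a receptor of migrating dendritic cells and lymphocytes. Neutrophil markers lay lower for 2 of 12, close to the 12.4% of all genes. Csf3r, the receptor of the granulocyte growth factor, had 35.4, 28.0 and 34.0 CPM against 173, 114 and 41.2 CPM, and Il1r2, a decoy receptor for interleukin 1, had 1.26, 0.837 and 12.6 CPM against 16.1, 511 and 57.3 CPM. T and NK cell markers lay higher for 5 and lower for 1 of 13, with a median of 2.25 that was -0.22 without PDGFRα library 3. Thy1, which fibroblasts share with T cells, had 37.9, 25.6 and 124 CPM against 0.965, 2.22 and 0.0629 CPM. Nkg7, of cytotoxic lymphocyte granules, had 11.7, 11.2 and 76.1 CPM against 0.483, 4.39 and 0.126 CPM. Of 13 mesothelial and glial markers 6 passed the filter and 3 of these lay higher, among them Msln, mesothelin, with 9.48, 8.37 and 45.8 CPM against 0, 1.20 and 0 CPM. Erythroid markers lay higher for 2 of 6 and summed to 2439, 39420 and 21430 CPM against 46.1, 1699 and 2919 CPM. The part of these blood cells in the other differences was not tested.

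Ribosomal protein genes, which every cell makes, did not separate the sorts. Of 32 tested, 0 lay higher and 1 lower without overlap, with a median log2 fold change of 0.05 that was 0.14 without F480 library 3 and -0.18 without PDGFRα library 1. Rpl13, a protein of the large subunit, had 4487, 2932 and 2496 CPM in P16hi PDGFRα libraries and 1969, 3374 and 2816 CPM in P16hi F480 libraries.

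The same comparison in P16lo cells asked whether these programs belong to the P16hi sorts. Of 13069 genes tested there, edgeR called 2 higher (0.0153%), the endothelial genes Esam and Mmrn2, named after their values were seen, and 0 lower (0%), while 1492 and 1055 had an unadjusted p under 0.05. P16lo PDGFRα libraries lay above P16lo F480 libraries without overlap for 1955 genes (15%) and below for 1739 (13.3%). Among 12459 genes tested in both comparisons, 1285 lay higher without overlap in P16hi and 1787 in P16lo sorts, of which 499 were shared (38.8% and 27.9% of each list). For lower genes there were 1591 and 1711, of which 613 were shared (38.5% and 35.8%), and 26 genes lay in opposite directions. P16hi and P16lo comparisons share no library, but they share the separate tables of the PDGFRα and F480 sorts. A difference between tables would enter both comparisons, so it cannot be told apart from a shared difference between sorts.

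The fibroblast, collagen and macrophage marker lists had medians on the same side of 0 at both reporter levels, and the monocyte list did not. The fibroblast median was 3.92 in P16hi and 3.86 in P16lo sorts, the collagen median 3.42 and 3.30, and the macrophage marker median -1.34 and -0.87. In P16lo sorts 4 of 20 fibroblast markers were free of overlap, against 19 in P16hi sorts, and the P16lo PDGFRα libraries summed to 798, 2623 and 23020 CPM of the list, against 1285, 1241 and 70.0 CPM in P16lo F480 libraries. P16lo F480 library 3 had 6867 CPM of macrophage markers and 7653 CPM of B cell markers, against 45850 to 51050 and 470 to 518 CPM in the other P16lo F480 libraries. The monocyte median was -2.44 in P16hi and 0.01 in P16lo sorts, and the endothelial median 0.65 and 5.09. A test of the difference between the 2 comparisons, on 14073 genes, called 0 by edgeR (0%), while 113 in the higher and 186 in the lower direction had an unadjusted p under 0.05, and DESeq2 called 2 higher and 8 lower. No list is therefore shown to differ between P16hi and P16lo sorts.

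**Figure D5:**
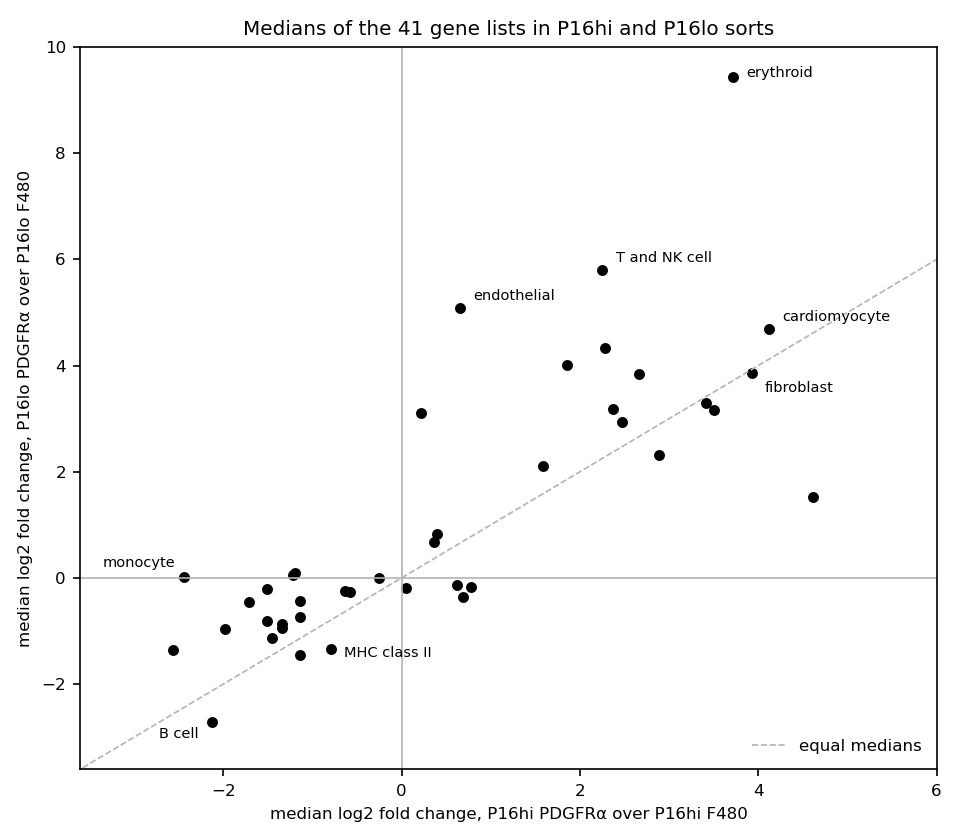
Median log2 fold change of each of the 41 gene lists, PDGFRα over F480, in P16hi sorts (horizontal axis) and in P16lo sorts (vertical axis), with a dashed line where both are equal. Fibroblast genes lie at 3.92 and 3.86, monocyte genes at -2.44 and 0.01, and endothelial genes at 0.65 and 5.09.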

How the data were processed

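Sorted cells of the infarct zone were profiled by RNA-seq, in 4 groups of 3 libraries. Per the labels' protocols cDNA was fragmented with a transposase and sequenced as DNA nanoballs. The submitters' processing notes name HISAT, GRCm38 and mm10, while versions, the counting tool and strand use were not given in the sources used here. Estimated counts per gene, with 13.0% to 18.8% of the values in the P16hi libraries not whole, were deposited by the authors and rounded for the tests. The authors deposited FPKM and TPM beside them, per the file headers. The deposited normalised read count is a signal scaled by the authors with 1 factor per library and was not tested. Tables were joined by gene ID, and 17900 of 17952 IDs (99.7%) matched RefSeq. Genes were tested with edgeR 4.0.16 (R 4.3.3), with TMM scaling, filterByExpr at a minimum count of 10, the robust quasi-likelihood F-test and Benjamini-Hochberg adjustment over all genes tested. Scripts were tested on simulated data. Alternatives were DESeq2 1.42.0, limma 3.58.1 on log2(TPM + 1), other scalings and filters, a replicate block and leaving out libraries. Named genes were Pdgfra, Adgre1, Cdkn2a and Ccl8, the 5 genes of smallest p per direction with mean log2 CPM of at least 5 and no overlap, leaving out predicted genes (Gm followed by digits, Rik, LOC, pseudogenes) and hemoglobin genes, and from each list any of the 4 members of smallest p or the 4 of highest CPM. Members and lists were chosen with earlier results of these data known. No column lacked a sample. Interaction genes and some list members are not reported here.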

Additional observations from a re-analysis of the deposited data

How the results depend on the processing

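With all 6 libraries the count of genes called by edgeR was 0 in both directions, also with DESeq2 size factors, upper quartile or totals-only scaling, no filter, a stricter filter, genes listed in every block only, hemoglobin left out and all 12 libraries in 1 fit. DESeq2 called 584 higher and 284 lower, limma 505 and 368 on the deposited TPM and 61 and 22 on TPM made from FPKM (added after seeing the data). Leaving out 1 library gave 0 to 663 higher and 0 to 280 lower, all from P16hi F480 library 3, and leaving out P16hi PDGFRα library 1 as well (added after seeing the data) gave 561 and 115. With a replicate block 4 genes were called higher and 0 lower in P16hi sorts, and 0 higher in P16lo sorts. Whether the replicate numbers pair the libraries is not known. Deviations of same-numbered libraries from their group means correlated across genes at 0.0954, 0.0422 and -0.00975. These values cannot decide it, since other differences among the libraries of a group enter the same deviations. In P16lo sorts totals-only scaling called 70 higher and 4 lower, DESeq2 1412 and 557, no filter 9 higher, and leaving out P16lo F480 library 3 (added after seeing the data) 5 and 9. DESeq2 called 2 higher and 8 lower for the interaction.

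The log2 fold change turned to 0.97 (deposited TPM) and 0.58 (TPM from FPKM) for Ccl8, to 0.062 (TPM from FPKM) for C1qb and to 0.013 (totals-only scaling) for B2m. Over the fits that left out libraries it ranged from -0.28 to 0.61 for Cdkn2a, -1.16 to 0.95 for C1qb, -2.29 to 0.40 for Apoe, -1.63 to 0.70 for Cd74, -1.57 to 0.71 for H2-Aa, -0.78 to 0.25 for B2m, -4.21 to 0.80 for Cd79a, -3.97 to 0.87 for Ccr7 and -0.029 to 0.52 for Rpl13. The cause was not tested. Of the other values of named genes under alternatives 1913 kept their direction and side of the threshold and 279 kept their direction and passed it. Depth limits Cdkn2a, with 5 to 26 counts a library.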
